A study of Drosophila melanogaster with 2 samples.

Results

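The genes described here are 7 nuclear genes of Drosophila melanogaster whose proteins copy, package, transcribe or process the mitochondrial genome: PolrMT, TFAM, mtTFB2, mTTF, PNPase, bsf and mtSSB. All 7 names matched a protein-coding gene by symbol in the dm6 annotation, out of 13968 protein-coding genes on the 7 assembled chromosome arms. They were chosen by name with earlier results of these data in view, above all the signal and rank of the peak at PNPase, so those values are given as a description with no test. The peaks counted for a gene were those with a summit within 500 bp of one of its transcript starts or inside the gene.

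The data are chromatin immunoprecipitation sequencing (ChIP-seq) peak lists that record where a fusion of the zinc finger protein ranshi with enhanced green fluorescent protein (ranshi-eGFP) was recovered on DNA. The labels' description names an anti-GFP antibody, while their antibody entry gives ranshi, and the description is followed here. Both samples were biological replicates of 1 group, whole embryos aged 0 to 24 h of the strain ranshi-GFP, which carries an insertion targeting ranshi. All animals carried the tagged protein, there was no second genotype or treatment, and control libraries were not analysed here. A pool of whole embryos mixes cell types and ages, so binding in few cells and weak binding in many cannot be told apart.

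Animal mitochondria keep a small circular genome, but nearly all proteins that maintain and express it are encoded in the nucleus and imported. A phage-like RNA polymerase, a packaging and promoter-bending protein and a specificity factor start transcription of long multi-gene RNAs, which are then cut, given tails, stabilised or degraded by further factors. In the Drosophila embryo the mitochondria come from the egg, and several of these nuclear genes lie back to back with a neighbour whose start is a short distance away. A known sequence at promoters of genes for replication and mitochondrial DNA maintenance in this species is the DNA replication-related element (DRE, TATCGATA).

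The DNA at the called peaks and at the short shared promoters is shown first, because the results turn on where summits lay relative to it. All sequences are from the RefSeq assembly of dm6, 5′ to 3′ on the strand of the named gene, in lower case. Capitals mark matches to 12 short motifs searched on both strands, and those matches are a description only. The 29 bases around the PNPase summit (3R:31404646-31404674, minus strand) held none of the 12 motifs, and nor did the 60 bases that lead from the far edge of the peak to the nearest PNPase start (3R:31404741-31404800).
PNPase summit: agaaacgtacagggcttttattgtaagat
PNPase upstream: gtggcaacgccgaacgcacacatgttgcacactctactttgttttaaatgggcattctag
The 201 bases centred on the mtSSB summit (3R:16205490-16205690, minus strand) lie upstream of mtSSB and outside it. Capitals mark an initiator-type TCAGT and an E-box CAGCTG. The 60 bases next to the mtSSB start (3R:16205251-16205310) lie outside the called peak, and capitals there mark the DRE core ATCGAT and the BEAF-32 core CGATA, which overlap in places.
mtSSB summit: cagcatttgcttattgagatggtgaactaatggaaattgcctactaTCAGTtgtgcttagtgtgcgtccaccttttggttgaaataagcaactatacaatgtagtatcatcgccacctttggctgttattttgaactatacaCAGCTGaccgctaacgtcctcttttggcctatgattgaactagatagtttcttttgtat
mtSSB start: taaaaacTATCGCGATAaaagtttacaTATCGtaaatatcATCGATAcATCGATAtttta
The shortest shared promoters are given whole, with 10 bases of each gene at the ends: TFAM with CG5412 (3R:20577001-20577062, minus strand), mtTFB2 with CG11722 (3R:10045533-10045583, plus strand) and bsf with its divergent neighbour (2L:18454578-18454658, minus strand). Capitals mark CGATA for TFAM, the full DRE for mtTFB2 and ATCGAT for bsf.
TFAM shared: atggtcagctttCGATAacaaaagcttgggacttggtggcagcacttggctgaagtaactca
mtTFB2 shared: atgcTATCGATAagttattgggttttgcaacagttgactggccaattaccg
bsf shared: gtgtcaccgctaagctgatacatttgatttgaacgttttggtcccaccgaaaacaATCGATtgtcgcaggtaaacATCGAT

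The lists were deposited in pairs, a thresholded set of called peaks and a longer ranked list of candidates. The conservative set of the series held 2984 peaks and its ranked list 89391 candidates, and the larger set held 5373 and 132943. Replicate 1 alone gave 3636 called peaks among 112688 candidates, and replicate 2 gave 3149 among 83284. The signal of a peak is the authors' own enrichment value, which is not scaled between lists, so ranks within a list were compared and signals between lists were not. The read depth behind the lists is unknown. The lowest score in each called set was 830, equal to a global irreproducible discovery rate (IDR, an estimate of how many of the peaks ranked that high or higher would be lost in another experiment, as a share) of 0.01.

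Called peaks lay at PNPase and mtSSB and at none of the other 5 genes, whose candidates fell below the authors' limit in every list. In the conservative set 2 of 7 genes had a called peak (28.6%, exact binomial 95% interval 3.67 to 71.0%), beside 17.2% of all protein-coding genes. The same 2 genes were the ones called in the larger set (25.9% of all genes), in replicate 1 (19.3% of all genes) and in replicate 2 (17.7% of all genes). Counting only summits within 500 bp of a start gave the same 2 of 7 beside 12.7% of all genes. The interval is wide with 7 genes. It covers counting error only, not the choice of the genes, so whether it holds these background shares decides nothing. The genes were chosen with the PNPase peak in view, so their share was not tested against that of protein-coding genes in general. Candidates were found at 7 of 7 genes in each ranked list, beside 69.3% of all genes in the list behind the conservative set, 87.9% in the larger one, 76.0% in replicate 1 and 79.7% in replicate 2.

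The median over the 7 genes of each gene's highest candidate signal was 40.1 in the conservative ranked list, against 40.0 over the 9676 protein-coding genes with a candidate. In replicate 1 the medians were 24.9 for the 7 genes and 24.4 for the 10612 protein-coding genes with a candidate. In replicate 2 they were 19.6 and 22.0, the latter over 11126 genes with a candidate. The middle of the group therefore lay close to that of genes with a candidate in both replicates. Its range in the conservative ranked list ran from 25.4 at TFAM to 1618 at PNPase. The highest signal was taken over the whole gene, with no adjustment for length. Median lengths were 1766 bp for the 7 genes and 2164.5 bp for all protein-coding genes.

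**Figure D1:**
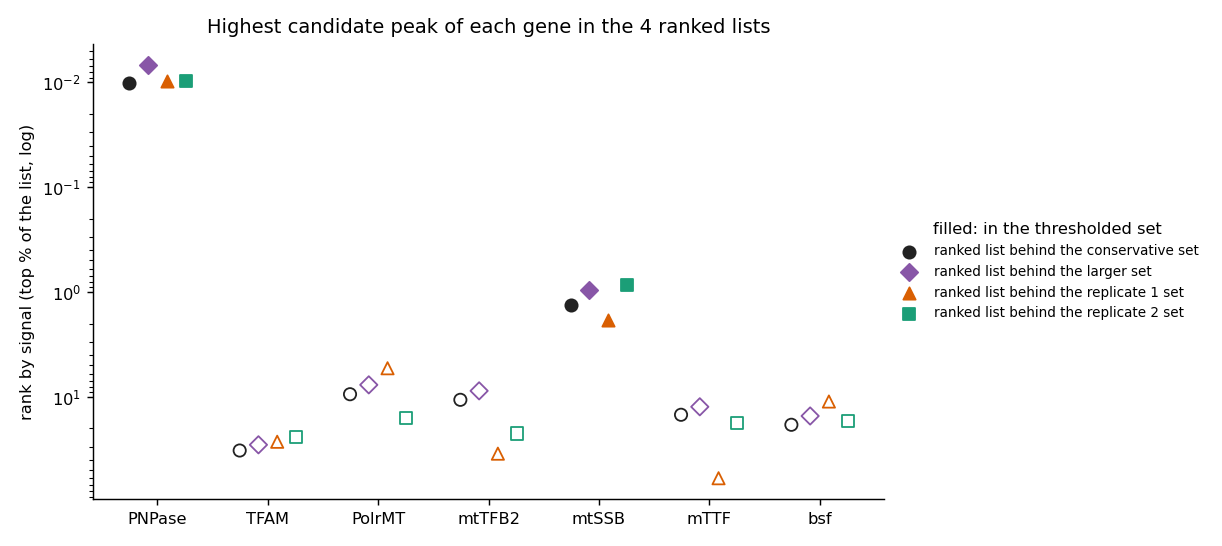
Rank by signal of the highest candidate at each gene, as the top percent of the list on a log axis with the strongest at the top, in the 4 ranked lists; filled symbols are peaks that are also in the matching thresholded set. PNPase lies near 0.01% and mtSSB near 1% in all 4 lists, and the other 5 genes lie between 5.34% and 59.8%, with open symbols only.

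PNPase (3R:31401560-31405452, minus strand) encodes polynucleotide phosphorylase, an exoribonuclease that degrades mitochondrial RNA from its 3′ end. Its called peak spanned 3R:31404520-31404800 in the conservative and the larger set, 281 bp wide, with a signal of 1618 and rank 8 in both. In replicate 1 the peak had a signal of 1165 and rank 10 of 3636, and in replicate 2 a signal of 471 and rank 7 of 3149. It was thus in the top 0.275% of the called set in replicate 1 and the top 0.222% in replicate 2, and 14.7 and 8.80 times the median signal of the respective sets. The gene was put on the list with this rank in view, so the height itself supports nothing further. The peak was assigned to PNPase by the position of its summit, so that position is given as a description as well.

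The PNPase summit was placed within a few bases by both replicates. It was at 31404661 in replicate 1 and 31404654 in replicate 2, 7 bp apart, and the replicate 2 peak of 233 bp lay wholly inside the replicate 1 peak of 273 bp. The gene has 3 annotated transcript starts, at 31405452, 31404740 and 31404568. The conservative summit at 31404660 was 792 bp downstream of the outermost start, 80 bp downstream of the middle one and 92 bp upstream of the innermost one, inside the annotated 5′ UTR. Near the outermost start there were candidates only. The highest had signals of 29.5 in the conservative ranked list, 29.0 in replicate 1 and 12.2 in replicate 2. Their summits were 189, 276 and 35 bp from that start, in the same order. The called summit therefore lay between the 2 inner starts and apart from the outermost one in both replicates. The called peak itself covered both inner starts in each replicate.

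No start of another gene was within 500 bp of the PNPase summit. The nearest was that of Gprk2, a G protein-coupled receptor kinase gene on the opposite strand, which begins inside PNPase at 31405245, 207 bp from the outermost PNPase start and 585 bp from the summit. The Gprk2 start was within 500 bp of those 3 candidates near the outermost PNPase start. The summits in the conservative ranked list (31405263) and replicate 1 (31405176) lay nearer to the Gprk2 start than to the PNPase one. The replicate 2 summit (31405417) lay nearer to the PNPase start.

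**Figure D2:**
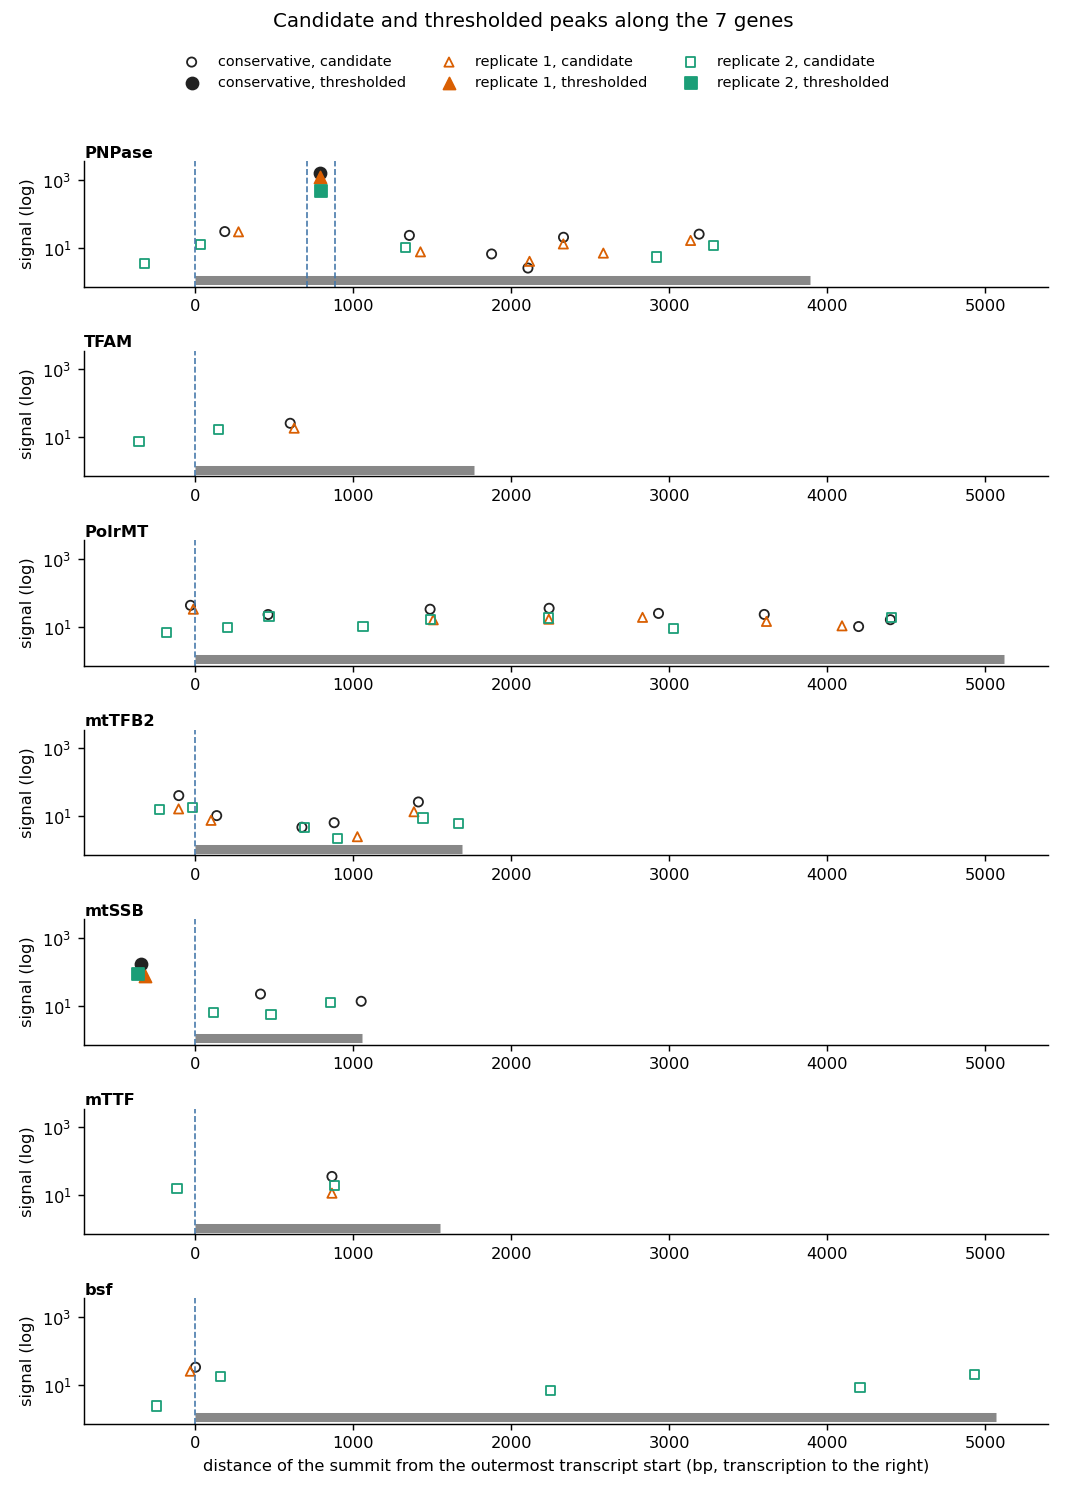
Signal (log axis) of every candidate and thresholded peak at the 7 genes against the distance of its summit from the outermost transcript start in bp, for the conservative lists and both replicates; grey bars are the genes and dashed lines their transcript starts. The filled symbols at PNPase lie 791 to 798 bp inside the gene, between its 2 inner starts, those at mtSSB lie 317 to 357 bp before the start, and the other 5 genes have open symbols only.

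mtSSB (3R:16204194-16205250, minus strand) encodes the mitochondrial single-stranded DNA-binding protein, which coats the exposed strand at the replication fork. Its called peak spanned 3R:16205432-16205747, 316 bp wide, with a signal of 167 and rank 1161 of 2984 in the conservative set. In replicate 1 the signal was 73.8 and the rank 1994 of 3636, and in replicate 2 the signal was 83.8 and the rank 684 of 3149. Against the median signal of its set the peak stood at 0.929 times in replicate 1 and 1.57 times in replicate 2, so it was just below the middle of the called peaks in one replicate and above it in the other. Its IDR was 0.000167 in the conservative ranked list and 1.13e-05 in the larger one, both far under the limit.

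The mtSSB summit lay upstream of the gene in all lists, 340 bp from its only annotated start in the conservative set, 317 bp in replicate 1 and 357 bp in replicate 2. The 2 replicate summits were 40 bp apart and their peaks shared 253 bp. No start of another gene was within 1000 bp of the summit. mtSSB and PNPase were the 2 of the 7 genes without a divergent gene starting within 500 bp of their own starts. Each of the 5 uncalled genes had one, which for mTTF was an antisense RNA gene. Gprk2 starts on the opposite strand 207 bp from the outermost PNPase start, but inside PNPase, and was not counted as divergent. The share of all genes with a divergent start was not computed, so this split is a description only. The mtSSB peak covered none of the 60 bases before the start shown above, which hold both DRE cores.

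PolrMT (2L:1103254-1108373, minus strand) encodes the single-subunit RNA polymerase that transcribes mitochondrial DNA and makes replication primers. Its highest candidate had a signal of 42.2 and rank 8443 of 89391 in the conservative ranked list, with a summit 28 bp upstream of the start and an IDR of 0.775. In replicate 1 the highest candidate was 10 bp upstream with a signal of 32.5 and rank 6015, and in replicate 2 it was 469 bp downstream with a signal of 20.2 and rank 13296. A candidate 463 bp downstream in the conservative ranked list had a lower signal, 22.6 at rank 36070, but a higher score, 533, and an IDR of 0.0518, the lowest of the PolrMT candidates in that list. By signal, the upstream candidate held the highest place in replicate 1 but not in replicate 2. The divergent gene CG14339 starts 167 bp away and had its start within 500 bp of the upstream candidate.

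TFAM (3R:20575245-20577010, minus strand) encodes the high-mobility-group protein that packages mitochondrial DNA and bends it at promoters. Its highest candidate signals were 25.4 in the conservative ranked list, 18.3 in replicate 1 and 16.9 in replicate 2. The summits did not coincide, since they lay 603 bp inside the gene in the conservative list, 628 bp inside in replicate 1 and 148 bp inside in replicate 2, all in coding exons. Among the 7 genes, TFAM stood lowest in the conservative ranked list, at rank 29080. Its start is 43 bp from that of CG5412 on the other strand.

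mtTFB2 (3R:10045574-10047260, plus strand) encodes the transcription factor that works with the polymerase to open the promoter. Its highest candidate had a signal of 40.1 at 102 bp upstream in the conservative ranked list, 16.3 at 103 bp upstream in replicate 1 and 17.4 at 15 bp upstream in replicate 2. In the larger ranked list the conservative candidate had a score of 726 and an IDR of 0.0178. That was the closest that any of the 5 uncalled genes came to the limit of 830. In the conservative ranked list the same candidate had a score of 157 and an IDR of 0.419. The highest candidates in replicates 1 and 2 had IDRs of 0.254 and 0.535. The start of CG11722 is 32 bp away on the opposite strand, so the candidate covered the promoter of both genes.

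mTTF (2L:14347239-14348790, minus strand) encodes the mitochondrial transcription termination factor, which in flies binds mitochondrial DNA at the borders of gene clusters. Its highest candidate lay in a coding exon, 867 bp from the start in the conservative ranked list (signal 35.4) and in replicate 1 (signal 11.4), and 884 bp in replicate 2 (signal 19.3). In replicate 1 that was rank 67396 of 112688, the lowest place of any of the 7 genes in any list. The antisense RNA gene asRNA:CR44850 starts 280 bp away on the other strand.

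bsf (2L:18449517-18454587, minus strand) encodes a pentatricopeptide-repeat protein, first known for binding bicoid mRNA, that stabilises mitochondrial RNAs. Its highest candidate had a signal of 32.6 at 4 bp inside the gene in the conservative ranked list and 24.9 at 29 bp upstream in replicate 1. In replicate 2 the highest was 19.6 at 4933 bp inside the gene, in a coding exon near its 3′ end. Ntf-2r, on the other strand, starts 62 bp from bsf and had its start within 500 bp of the candidates at the bsf start.

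The candidates of these 5 genes were low against the called peaks. In the conservative lists their highest signals exceeded from 2.48% of the called peaks at TFAM to 3.08% at PolrMT, where PNPase exceeded 99.7% and mtSSB 61.1%. In replicate 1 the range over the 5 genes was 0.770% to 1.65%, and in replicate 2 it was 3.08% to 3.37%. All candidates at the 7 genes that were not called, 24 in the conservative ranked list, had a median signal of 22.8, against 19.5 over the whole list.

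**Figure D3:**
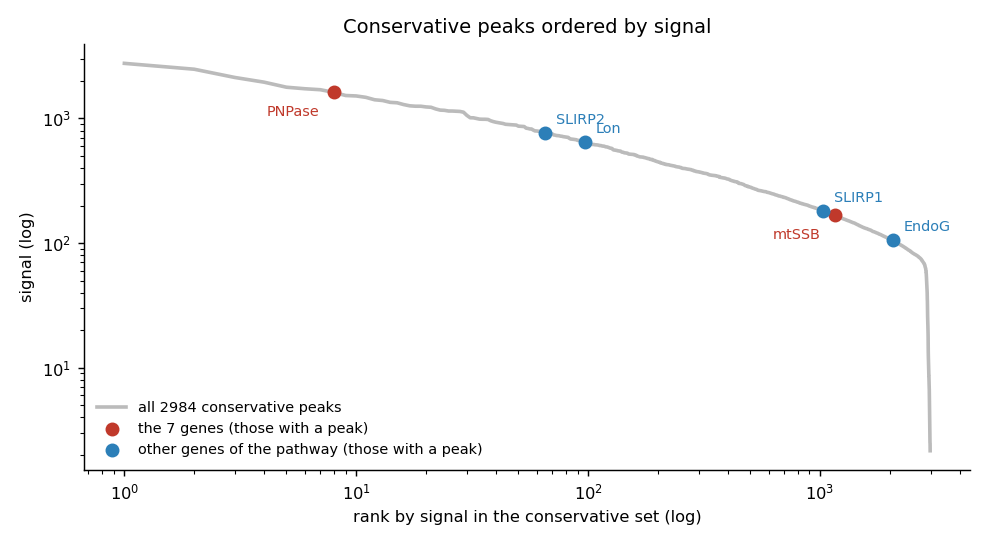
Signal of all 2984 conservative peaks against their rank, both on log axes, with the called peaks at the 7 genes and at the other listed mitochondrial genes marked. PNPase is at rank 8, SLIRP2 at rank 65 and Lon at rank 97, while SLIRP1 (1031), mtSSB (1161) and EndoG (2062) are further down the curve.

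The edge of the 500 bp rule decided none of the called genes. The called summit nearest to the edge from inside was that of mtSSB, at 357 bp in replicate 2, and the nearest from outside was at mtTFB2, 2363 bp upstream in replicate 2 and 2378 bp in the conservative set. That peak, of signal 280 in the conservative set, was 74 bp from the start of CG3909. For the remaining 4 genes the nearest conservative peak was 6920 bp away for mTTF, 10912 bp for TFAM, 11157 bp for PolrMT and 22988 bp for bsf.

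The other genes of mitochondrial DNA maintenance, transcription, RNA processing and translation were taken from a list of 37 names, of which 30 matched a further gene. In the conservative set 4 of the 30 had a called peak (13.3%, exact 95% interval 3.76 to 30.7%), against the 17.2% of all protein-coding genes given above. SLIRP2, which encodes a protein related to the human partner of the bsf homologue, had the highest signal, 766 at rank 65, with its summit 121 bp upstream. In the replicates SLIRP2 had signals of 546 (rank 64) and 210 (rank 104). Lon, the mitochondrial matrix protease that degrades TFAM among other proteins, had a signal of 652 at rank 97, and in the replicates 526 (rank 69) and 124 (rank 316). Both genes were called in each of the 4 sets, as PNPase and mtSSB were.

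The remaining genes of that list were called less evenly. SLIRP1 had a conservative signal of 181 at rank 1031 and EndoG, a mitochondrial nuclease, 105 at rank 2062. Both were called in replicate 1 and neither in replicate 2, where their highest candidates had signals of 27.9 and 30.4. Replicate 2 instead called ClpX, the unfoldase subunit of a matrix protease, mEFG1, a mitochondrial elongation factor, and the mitochondrial DNA helicase gene mtDNA-helicase, so that 5 of 30 were called there (16.7%, beside 17.7% of all genes) and 4 of 30 in replicate 1 (13.3%, beside 19.3%). In the larger set 8 of 30 were called (26.7%, beside 25.9% of all genes), with mEFG1, mRRF1, mTerf5 and ClpX added to the conservative 4.

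The 4 conservative peaks of that list all had the start of another gene close by. The SLIRP2 summit had the start of Mkk4 within 500 bp, the Lon summit that of PIG-F, the SLIRP1 summit that of anox and the EndoG summit that of asRNA:CR45264. PNPase and mtSSB had no other start within that distance, and with 2 genes against 4 the difference was not tested. The share of all conservative peaks with another start that close was not computed, so these counts are a description only. The median highest signal in the conservative ranked list was 41.0 over the 23 listed genes with a candidate, beside 40.1 for the 7 genes.

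**Figure D4:**
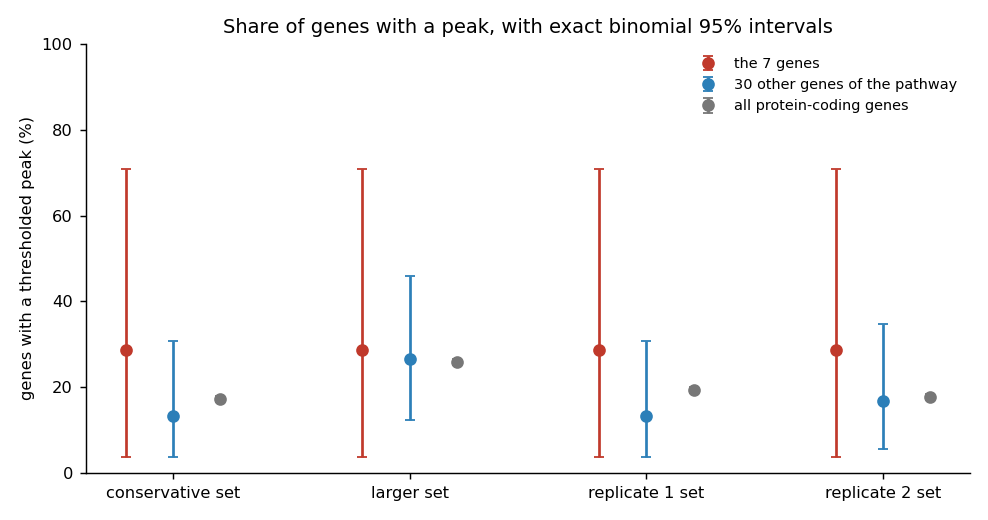
Share of genes with a called peak, in percent, for the 7 genes, the 30 other listed genes and all 13968 protein-coding genes in the 4 thresholded sets, with exact binomial 95% intervals as bars. The 7 genes stand at 28.6% in each set with intervals from 3.67 to 71.0%, which take no account of how the genes were chosen.

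The motifs in the sequences shown above were counted in promoters, taken as 250 bp before to 50 bp after a start, and in windows of 100 bp to each side of a summit. The promoter windows were 301 bp long and the summit windows 201 bp, so more bases were searched in promoters and the shares are not directly comparable. The DRE TATCGATA was in 9.36% of 13968 promoters and in 3.28% of the 2984 conservative summit windows. Of the 7 genes, mtTFB2 held it in the promoter of its outermost start, centred 33.5 bp upstream, where it also covers the first bases of CG11722. The DRE core ATCGAT was in 3 of the 7 outermost promoters (bsf, mtSSB and mtTFB2) and in 23.3% of all promoters. CGATA, which overlaps it in part, was in 5 of 7 (those 3, TFAM and mTTF) and in 47.4%. mtSSB held 2 ATCGAT and 6 CGATA in its promoter window. CAGCTG was in 4 of the 7 outermost promoters and in 17.7% of all promoters, and TCAGT in 1 of 7 and in 51.6%. PNPase held CGATA and TCAGT in the promoter of its middle start, but neither in that of its outermost start.

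Neither called summit window held a DRE or its core. The PNPase window held TAATTA, the core of homeodomain sites, 26.5 bp downstream of the summit, and TCAGT 68 bp upstream of it. The mtSSB window held CAGCTG 44.5 bp downstream and TCAGT 52 bp upstream. Of all conservative summit windows, 17.6% held TAATTA. The E-box CAGCTG was in 7.91% of them and TCAGT in 36.8%. The core CACTG, present in 54.0% of those windows and in 46.2% of promoters, was in neither. The share of G and C was 37.3% in the PNPase window and 38.8% in that of mtSSB, beside 35.8% ± 7.28 (SD, n = 2984) over all conservative summit windows.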

How the data were processed

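Peak lists of 2 biological replicates, and of the series, were analysed on dm6 as deposited. Which aligner and peak caller were used is not given in the sources used here, nor is the read depth. As deposited by the authors, the score of a peak was a whole number capped at 1000, and on the ranked lists it equalled 125 times the log2 of 1 over the IDR within 1 unit for 100% of peaks. The deposited signal is the authors' own value per peak. The deposited −log10 values gave the IDR, and the deposited summit offsets gave positions. In each series ranked list 8 columns of per-input values were not matched to a sample and not used.

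Genes and transcript starts came from the Ensembl annotation of the same build, and sequence from the RefSeq assembly. Peaks were assigned to genes by summit, ranked by signal within each list and counted with exact binomial intervals at 95% with Python 3.11.15, numpy 2.4.6, pandas 2.3.3, scipy 1.17.1 and matplotlib 3.10.9. Motif searches covered 12 words on both strands. The assignment was tested on simulated data. With 1 group there was no contrast to test, and members were not treated as replicates.

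The 7 genes and the pathway list were chosen with earlier results of these data known. Named genes were the 7, every gene with a start within 500 bp of their summits, and pathway genes with a conservative peak. Pathway genes called only in another set, and the genes nearest to peaks outside the window, were named after their values were seen. Of 37 pathway names 1 matched through an older symbol, 6 had no unique match and 1 repeated a gene. Promoter windows were read from the genome. The alternatives were the peak set, each replicate alone, the window, the start used, the higher signals alone and peak overlap in place of summits.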

Additional observations from a re-analysis of the deposited data

How the results depend on the processing

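The count of the 7 genes with a called peak was 2 under the 1000 bp window, starts alone, the larger set, the higher signals, peak overlap and the outermost start, and 1 with a 200 bp window, which lost mtSSB because its summit is 340 bp away. The share of all protein-coding genes, 17.2% in the main count, was 15.0% with 200 bp, 18.4% with 1000 bp, 12.7% with starts alone, 25.9% in the larger set, 10.6% with the higher signals and 17.9% with peak overlap. With 1 replicate left out in turn, the count of the 7 genes with a called peak stayed at 2. Of the pathway list, 4 genes were called, 8 in the larger set and from 4 to 5 with 1 replicate left out, where the share of all genes was 19.3% in replicate 1 and 17.7% in replicate 2. The top percent of PNPase was 0.268% in the conservative set, 0.149% in the larger set, 0.275% without replicate 2 and 0.222% without replicate 1. That of mtSSB, 38.9% in the conservative set, was 22.7% in the larger set, 54.8% without replicate 2 and 21.7% without replicate 1. With the conservative ranked list as the reference, the values were 0.0101% for PNPase and 1.34% for mtSSB. These percents depend on the length of the list as well as on the rank. Narrowing the summit window to 50 bp lowered the share of windows for 12 of 12 motifs. The narrower windows lie inside the wider ones, so no share could rise. Whether the falls went beyond the loss of bases was not tested. No paired analysis was possible because there was 1 group. Depth limits were not computed, because no read counts were at hand, and a gene without a called peak was not shown to be unbound.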
